A study of Homo sapiens with 4 samples.

Results

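The genes described here lie on the short arm of human chromosome 5, called 5p. They are the GENCODE genes wholly inside chr5:200000-43400000 (GRCh38), except BRD9 and ADCY2, with at least 40 reads across their annotated splice junctions over 4 libraries. This gave 79 members, of 634 GENCODE genes in the stretch, of which 131 had any junction read. All 79 also passed the low-count filter of the test across genes, which kept 10833 of 17180 genes with a read. The stretch was chosen because its genes had lower spliced reads in SF3B1 K700E cells. The levels of the members in the 2 genotypes are therefore given as a description, with no test behind them.

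The libraries came from K562 cells, 2 of the SF3B1 K700E genotype and 2 of the wild-type genotype. Both genotypes share the same treatment text, in which a modified allele was induced with 1 µg/ml doxycycline and the cells were collected after 4 days. The labels do not say which allele the wild-type cells carried, whether either line was 1 clone, or whether replicates were separate cultures. Every p-value therefore reflects only how far these libraries vary, and that variation may be technical. RNA was taken from the chromatin fraction in buffers with 25 µM α-amanitin and depleted of polyadenylated and ribosomal RNA before sequencing.

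A human chromosome has a short and a long arm joined at the centromere, and 5p carries genes for unrelated household and tissue-specific functions. SF3B1 is a core protein of the U2 snRNP, the part of the spliceosome that binds the branch point, and K700E is its most frequent substitution in myelodysplastic syndromes. RNA still attached to chromatin is enriched for transcripts being made and spliced. A read across a junction records an intron already removed.

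Uniquely mapped junction reads numbered 4304213 and 5322414 in the SF3B1 K700E libraries and 3582592 and 3687513 in the wild-type libraries. The labels call the cells epithelial, whereas K562 is an erythroleukemia line. Erythroid markers summed to 1433 and 2170 CPM (reads scaled to a common library total) in SF3B1 K700E and 1638 and 2098 CPM in wild type, with the transferrin receptor TFRC the most read. All 15 erythroid markers had a read. Of the 10 epithelial markers, 6 had a read and summed to 348 and 443 CPM in SF3B1 K700E and 483 and 371 CPM in wild type, mostly keratins. Of the 9 megakaryocyte markers, 7 had a read, with 147 and 619 CPM in SF3B1 K700E and 417 and 152 CPM in wild type, nearly all from ITGA2B. Of the 8 lymphoid markers, 4 had a read, with 1768 and 1534 CPM in SF3B1 K700E and 913 and 1210 CPM in wild type, nearly all from PTPRC, which most blood cells express. The part of these marker levels in the values of the 5p genes was not tested.

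The 5p genes had a median level in SF3B1 K700E of 0.574 times that in wild type, a log2 difference of -0.80. Their interquartile range was -1.10 to -0.51 on that scale. Over all 10833 genes tested the median log2 difference was 0.00, and over the 405 tested genes on the rest of chromosome 5 it was 0.06. Of the 79 members, 71 had a negative and 8 a positive log2 difference. In 59 members both SF3B1 K700E libraries lay below both wild-type libraries, as they did in 20.1% of all genes tested. In 1 member, CDH12, both lay above, as in 19.4% of all genes, and in the other 19 the libraries overlapped. Since the stretch was picked on this contrast, nothing is read from the difference between these shares.

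As a share of all reads assigned to genes, the members took 0.588% (95% Wilson interval 0.581 to 0.596) in SF3B1 K700E replicate 1 and 0.445% (0.440 to 0.451) in replicate 2. They took 0.834% (0.824 to 0.844) in wild-type replicate 1 and 0.895% (0.885 to 0.905) in replicate 2. The genotypes did not overlap, and the intervals cover counting error only, since the reads carry no molecular identifiers. The share averaged 0.517% ± 0.101 in SF3B1 K700E and 0.865% ± 0.0432 in wild type (SD, n = 2 each), a ratio of 0.598. Without the 3 members with the most reads the ratio was 0.613, at 0.372% ± 0.0668 in SF3B1 K700E and 0.607% ± 0.00641 in wild type. Chromosome 5 beyond the stretch took 4.03% and 3.78% in SF3B1 K700E and 3.62% and 3.92% in wild type, where the genotypes overlapped.

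**Figure D1:**
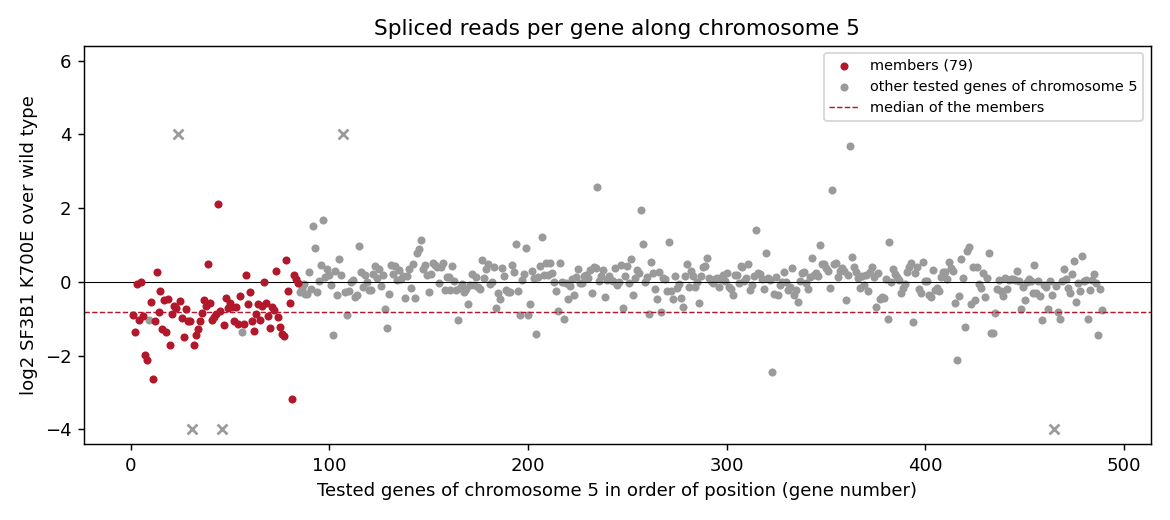
Log2 ratio of spliced reads, SF3B1 K700E over wild type, for the 489 tested genes of chromosome 5 in order of position. Each point is a gene, members in red and all others in grey; crosses at 4 and -4 are genes beyond that range, and the dashed line is the members' median of -0.80. The members sit mostly below 0, while the genes to their right scatter around it.

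The 2 SF3B1 K700E libraries were not equally low. Over the members, the median log2 level relative to the wild-type mean was -0.64 in SF3B1 K700E replicate 1 and -0.95 in replicate 2. The median log2 difference of replicate 1 from replicate 2 was 0.27 in the members, 0.15 on the rest of chromosome 5 and 0.01 over all genes tested. Between the wild-type libraries the median difference, replicate 1 from replicate 2, was -0.08 in the members. Each SF3B1 K700E library was lower than each wild-type library at the median of the members, the 4 pairings running from -0.99 to -0.64. RNA of all cells of a sample was pooled, and the files hold RNA counts only. Fewer cells with the RNA, fewer gene copies and less RNA per copy cannot be told apart, and the copy number of 5p was not measured.

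**Figure D2:**
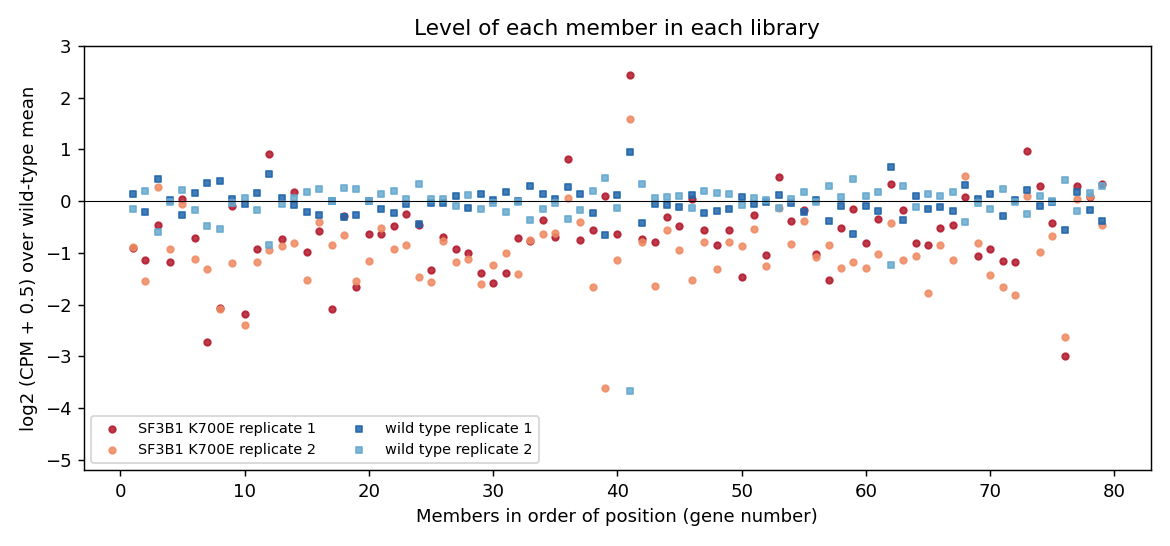
Level of each of the 79 members in each library as log2 of CPM plus 0.5 over the wild-type mean plus 0.5, with members in order along the chromosome. Red and orange circles are the 2 SF3B1 K700E libraries and blue squares the 2 wild-type libraries. In 59 members both circles lie under both squares, and at the right-hand end circles and squares mix.

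By position, the members were low over most of the stretch and less so near its inner end. In 5 Mb windows from the telomere inwards, the median log2 difference was -0.91 (17 members), -0.70 (7), -1.05 (12), -0.80 (2), -0.84 (4), -0.81 (2), -0.68 (12), -0.76 (13) and -0.41 (10). SF3B1 K700E replicate 2 stayed between -1.09 and -0.83 relative to the wild-type mean in all 9 windows. Replicate 1 ranged more widely, from -0.90 in the first window to -0.17 in the last. On the rest of chromosome 5 past 50 Mb, 27 such windows had medians between -0.26 and 0.38. The medians of the other 22 chromosomes tested lay between -0.12 and 0.20.

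**Figure D3:**
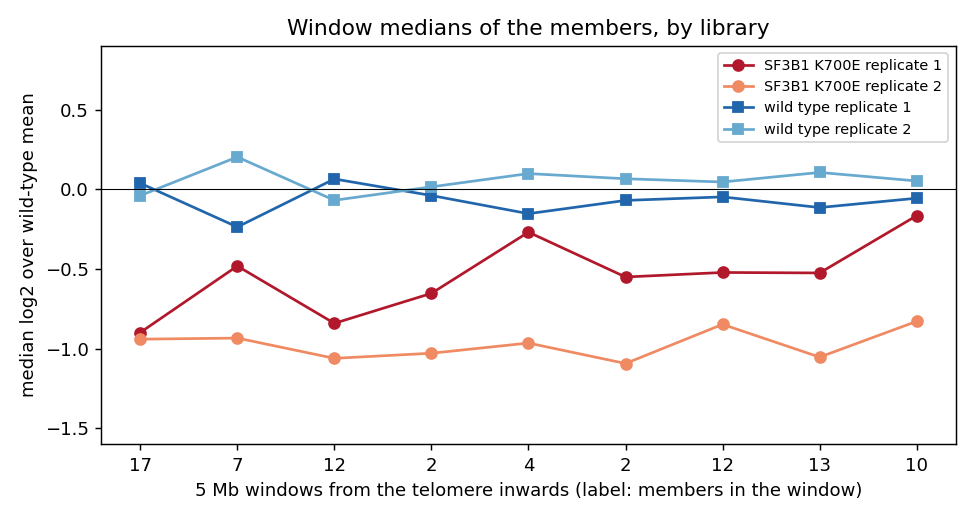
Median log2 level of the members in each 5 Mb window relative to the wild-type mean, 1 line per library, from the telomere (left) inwards; the axis labels give the number of members per window. Both SF3B1 K700E lines lie below both wild-type lines in each of the 9 windows, and SF3B1 K700E replicate 1 comes nearest to 0 in the last one, at -0.17.

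Where along the stretch the difference ends was not tested. In the last 5 Mb window SF3B1 K700E replicate 1 was at -0.17 relative to the wild-type mean and replicate 2 at -0.83. With a split at 41 Mb, placed after the values were seen, the 72 members before it had a median log2 difference of -0.87, and 57 of them were lower in both SF3B1 K700E libraries. The 7 members from 41 Mb on had a median of -0.02, and 2 of them were lower in both, the selenoprotein SELENOP and FBXO4, an F-box protein of a ubiquitin ligase. The first members at the telomere end are SDHA (-0.89) and PDCD6 (-1.35), and the last are ZNF131 (0.09) and HMGCS1 (-0.02). Just past the inner end, TMEM267 had -0.28 and C5orf34 had -0.17. The 6 tested genes from 43.4 to 48 Mb had a median of -0.23, and 3 were lower in both SF3B1 K700E libraries.

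At the read minimum, SRD5A1, a steroid 5α-reductase, and SPEF2, a sperm flagellar protein, were just inside with 46 reads each. AMACR (35 reads) and LINC02228 (32 reads) were just outside. BRD9, a bromodomain subunit of a BAF chromatin remodeller that the rule leaves out, had 148 and 174 CPM in SF3B1 K700E and 379 and 279 CPM in wild type. ADCY2, an adenylyl cyclase also left out, had 229 and 240 reads in SF3B1 K700E and 0 and 0 reads in wild type.

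The members with the most reads include genes of general cell functions. MARCHF6 (chr5:10353703-10440388, plus strand; named MARCH6 in the annotation used) encodes a ubiquitin ligase of the endoplasmic reticulum that marks misfolded and short-lived proteins. It had 591 and 544 CPM in SF3B1 K700E and 1074 and 1279 CPM in wild type, a log2 difference of -1.05. The libraries did not overlap, and it had the most reads of any member, 12735. RICTOR, a defining subunit of the kinase complex mTORC2, had 530 and 332 CPM in SF3B1 K700E and 638 and 822 CPM in wild type. NIPBL, which loads cohesin onto DNA, had 548 and 339 CPM in SF3B1 K700E and 605 and 778 CPM in wild type. In both genes SF3B1 K700E replicate 1 came nearer to wild type than replicate 2 did, without overlap.

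RNA processing, translation and transcription was the largest of the 8 function lists, with 14 members. In 10 of the 14 both SF3B1 K700E libraries were lower, and their median log2 difference was -0.68. Over all genes tested 20.1% were lower in both, and 59 of the 79 members were. The stretch was chosen on this contrast, so nothing is read from such counts in this or any later group of members. DROSHA, the nuclear enzyme that cuts microRNA precursors, had 389 and 283 CPM in SF3B1 K700E and 507 and 584 CPM in wild type. NSUN2, which methylates cytosines in tRNA, had 161 and 112 CPM in SF3B1 K700E and 251 and 251 CPM in wild type. TARS1 (TARS in the annotation used), the threonyl-tRNA synthetase, was nearer to wild type, with 398 and 328 CPM in SF3B1 K700E and 459 and 494 CPM in wild type. None of these 3 overlapped between genotypes. ZFR, a zinc-finger RNA-binding protein, had 126 and 108 CPM in SF3B1 K700E and 169 and 204 CPM in wild type.

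The nucleoporin NUP155 overlapped, with 248 and 126 CPM in SF3B1 K700E and 217 and 342 CPM in wild type. So did the ribosome assembly factor BRIX1 (log2 difference -0.28), the aryl hydrocarbon receptor repressor AHRR (-0.05) and the zinc-finger protein ZNF131 (0.09). DNAJC21 (-1.06) and ZNF622 (-0.57), which also act in assembly of the large ribosomal subunit, did not overlap. The transcription cofactors MED10 of Mediator (-1.70) and SUB1 (-1.14) and the RNA-tailing enzyme TENT4A (-0.70) were lower in both SF3B1 K700E libraries as well.

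RPL37 (chr5:40825262-40835335, minus strand), a protein of the large ribosomal subunit, was among the lowest. It had 95.3 and 61.3 CPM in SF3B1 K700E and 218 and 213 CPM in wild type, a log2 difference of -1.46 with a standard error of 0.26. The libraries did not overlap. RPL37 has processed pseudogenes elsewhere in the genome, and reads that align to several places are not counted, so the level itself is uncertain.

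All 9 members of the list of protein folding, ubiquitin and vesicle traffic were lower in both SF3B1 K700E libraries, with a median log2 difference of -0.80. So were 59 of all 79 members and 20.1% of all genes tested, and whether this list differs from other members was not tested. CCT5, a subunit of the chaperonin that folds actin and tubulin, had 187 and 176 CPM in SF3B1 K700E and 294 and 310 CPM in wild type. EXOC3, of the exocyst that tethers secretory vesicles, had 69.8 and 83.4 CPM in SF3B1 K700E and 160 and 157 CPM in wild type. CLPTM1L, a membrane protein, had 97.1 and 89.0 CPM in SF3B1 K700E and 169 and 156 CPM in wild type. The others were PDCD6, a calcium-binding adaptor (-1.35), MTMR12, a catalytically dead myotubularin (-1.07), GOLPH3 of the Golgi (-0.69), OTULIN, which removes linear ubiquitin chains (-0.66), FBXO4 (-0.58) and MARCHF6.

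Of the 8 members among mitochondrial proteins and metabolic enzymes, 5 were lower in both SF3B1 K700E libraries, with a median log2 difference of -0.59. SDHA, the flavoprotein of succinate dehydrogenase, had 108 and 110 CPM in SF3B1 K700E and 222 and 182 CPM in wild type. NDUFS6 of complex I (-1.37), the mitochondrial NAD kinase NADK2 (-1.04), SRD5A1 (-0.66) and methionine synthase reductase MTRR (-0.53) did not overlap either. The other 3 overlapped. They were the phospholipid enzyme LPCAT1 (-0.25), OXCT1 of ketone body use (0.61) and HMGCS1 of cholesterol synthesis (-0.02), of which OXCT1 and HMGCS1 lie beyond 41 Mb. HMGCS1 had 35.8 and 20.6 CPM in SF3B1 K700E and 21.7 and 35.2 CPM in wild type, so its libraries differed more within genotypes than between them.

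Chromosome maintenance and cell cycle had 6 members, 4 of them lower in both SF3B1 K700E libraries, with a median log2 difference of -0.60. Besides NIPBL these were the centrosomal protein CEP72 (-0.91), the checkpoint clamp subunit RAD1 (-0.61) and TRIP13, which remodels the spindle checkpoint (-0.55). The F-box protein SKP2 overlapped (-0.59). So did the telomerase catalytic subunit TERT, which had 29 and 8 reads in SF3B1 K700E and 18 and 6 reads in wild type, too few to rank the genotypes.

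The cytoskeleton and adhesion list held the widest spread, through CDH12 alone. Without CDH12 the list ran from -1.03 (CDH18) to 0.30 (FYB1) and was no longer the widest. Of its 7 members, 4 were lower in both SF3B1 K700E libraries and 1 higher in both, and its median log2 difference was -0.49. TRIO, a large signalling protein, had 305 and 254 CPM in SF3B1 K700E and 434 and 352 CPM in wild type, without overlap. DAB2, a clathrin adaptor (-0.94), the cadherin CDH18 (-1.03) and RICTOR were lower in both as well. CDH12, a type II cadherin known from the brain, had 74.9 and 41.4 CPM in SF3B1 K700E and 26.3 and 0.601 CPM in wild type, a log2 difference of 2.11. Its wild-type libraries had 86 reads in replicate 1 and 2 in replicate 2. On the log2 scale those libraries differed by 4.60, more than the genotypes did. The size of the genotype difference is therefore poorly fixed, and it was 6.52 without wild-type replicate 1.

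FYB1, an adaptor of blood cells, overlapped, with 54.7 and 72.1 CPM in SF3B1 K700E and 64.5 and 38.8 CPM in wild type. RAI14, an actin-binding ankyrin protein, also overlapped, with 36.1 and 23.7 CPM in SF3B1 K700E and 28.1 and 23.7 CPM in wild type.

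Of the 7 cytokine and hormone receptors on the list, 6 had a read and 2 had enough to be members, and both were lower in both SF3B1 K700E libraries. LIFR, the receptor chain for leukemia inhibitory factor, had 119 and 74 reads in SF3B1 K700E and 159 and 198 reads in wild type, a log2 difference of -1.26. OSMR, the oncostatin M receptor chain, had 39.3 and 31.4 CPM in SF3B1 K700E and 52.5 and 61.3 CPM in wild type. Of the 2 transporters, the potassium chloride cotransporter SLC12A7 was lower in both (-1.05), while the pyrophosphate exporter ANKH overlapped (0.50). The single secreted protein was SELENOP, described below with the called genes.

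Other members with many reads or large differences belong to no list. WDR70, a WD-repeat protein, had 147 and 125 CPM in SF3B1 K700E and 277 and 241 CPM in wild type. PRKAA1, a catalytic subunit of the energy sensor AMPK, had 40.6 and 28.7 CPM in SF3B1 K700E and 74.9 and 108 CPM in wild type, a log2 difference of -1.41. PURPL, a long noncoding RNA described as a p53 target, had 107 and 71 reads in SF3B1 K700E and 147 and 163 reads in wild type, a log2 difference of -1.18. None of the 3 overlapped between genotypes. The 11 members that are not protein coding had a median log2 difference of -0.94, against -0.78 in the 68 coding ones, and 8 of the 11 were lower in both SF3B1 K700E libraries.

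In edgeR's quasi-likelihood test with Benjamini-Hochberg adjustment over all genes, 3 members were called lower, ZDHHC11, RPL37 and SELENOP, and 0 higher. By list, 1 call fell in RNA processing, translation and transcription, 1 among secreted proteins and 0 in the other 6 lists. Over all genes, 66 were called lower, which is 0.609%, and 36 higher. At an unadjusted p under 0.05, 44 members were lower and 1 was higher, against 698 lower and 398 higher among the 10833 genes tested. The count of members called lower depended on single libraries, being 0 without SF3B1 K700E replicate 2 (edgeR, with 0 calls among all genes and 881 genes at an unadjusted p under 0.05), 17 without replicate 1, 12 without wild-type replicate 1 and 5 without replicate 2. In the last 3 of these settings 184, 176 and 228 of all genes were called lower. It was 14 by DESeq2, with 154 among all genes, and 5 with no filter on low counts, with 86 among all genes. Because the members were chosen on this contrast, these calls describe the scatter of the libraries and are no support for the choice.

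ZDHHC11 (chr5:795606-850986, minus strand) encodes a protein of the palmitoyltransferase family. It had 13.4 and 13.1 CPM in SF3B1 K700E and 75.2 and 39.4 CPM in wild type, a log2 difference of -2.11 with a standard error of 0.35. Its neighbour and near copy ZDHHC11B had -1.98, and reads that map to both are not counted, so how the signal divides between them is uncertain. SELENOP (chr5:42799880-42887392, minus strand) encodes the plasma protein that carries selenium. It had 4 and 7 reads in SF3B1 K700E and 25 and 51 reads in wild type, a log2 difference of -3.17 with a standard error of 0.58. Counts this low leave its size loose, though the libraries did not overlap. The same caution on copies applies to SDHA and its pseudogene SDHAP3 (-1.27), to PDCD6 and PDCD6P1 (-0.50), and to GUSBP1 (-0.88) and GUSBP18 (-1.15).

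Members differed more among themselves when they had fewer reads. Among the 27 members with the most reads over the 4 libraries, 23 were lower in both SF3B1 K700E libraries, with a median log2 difference of -0.87 and an interquartile range from -0.99 to -0.66. Among the 26 in between, 19 were, with a median of -0.67. Among the 26 with the fewest reads, 17 were, with a median of -0.89 and an interquartile range from -1.36 to -0.09. Among the 45 members with at least 400 reads, 36 were lower in both, against 18.2% of all 6004 genes tested with that many reads. Shares over all genes were not taken for the 3 classes by reads. Over all genes tested 20.1% were lower in both. Split into 3 classes by gene length, the medians were -0.77, -0.87 and -0.76 from the shortest to the longest. Members on the minus strand had a median of -0.91 (40 genes) and those on the plus strand -0.69 (39 genes).

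Neighbours that share a start region were set side by side. Within 1000 nt, 5 pairs of members start head to head on opposite strands. In the table of RefSeq promoters (build GRCh38.p14), 63 of the 79 members matched an entry, and both genes did in 2 of the pairs. The bases between the annotated starts of those pairs are shown because both genes begin at their edges, with CG dinucleotides in capitals, read on the plus strand at chr5:31532197-31532265 and chr5:36151962-36151988.
DROSHA/C5orf22: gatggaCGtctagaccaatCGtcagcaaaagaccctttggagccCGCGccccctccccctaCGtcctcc
LMBRD2/SKP2: gggtatctCGaaggCGggtaaagctgc
Among all 35116 entries of that table, 79.2% hold at least 1 CG in the 69 bases before the start and 63.9% in the 27 bases before it. A CG reads the same on both strands, and its presence is a description only.

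In both pairs the 2 genes had negative log2 differences, as had 71 of the 79 members. DROSHA had -0.70 and C5orf22, an uncharacterised protein gene, had -0.57, with 21.4 and 6.86 CPM in SF3B1 K700E and 22.6 and 18.9 CPM in wild type for C5orf22, which overlapped. LMBRD2, a membrane protein, had -0.87 and SKP2 had -0.59. SKP2 had 23.7 and 11.4 CPM in SF3B1 K700E and 16.8 and 35.8 CPM in wild type and also overlapped. The log2 difference changed sign for C5orf22 without SF3B1 K700E replicate 2 and for SKP2 without wild-type replicate 2. In the other 3 pairs, both genes were lower in both SF3B1 K700E libraries. NSUN2 had -0.88 and SRD5A1 -0.66, CCT5 had -0.73 and its partner ATPSCKMT, a lysine methyltransferase, -1.49, and the noncoding AC106771.1 had -1.29 and LINC01194 -1.05.

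The junctions of each gene were also compared singly. Of 780 annotated junctions of members with at least 20 reads, in 71 genes, 472 (60.5%) were lower in both SF3B1 K700E libraries and 20 were higher in both. The share of all junctions higher in both is not given here, so nothing is read from the 20. Over all junctions of that depth, 17% were lower in both. In MARCHF6 it was 26 of 27 junctions, in SDHA 15 of 15, in NSUN2 16 of 18 and in SLC12A7 18 of 22. TRIO, with the most junctions, had 28 of 56, and 53 of the 56 had a negative log2 difference. In NUP155 it was 10 of 34. In PURPL, 1 of 3 was lower in both, with the others at 0.76 and -0.18, and that 1 held 392 of its 488 reads at a log2 difference of -1.46. In FYB1, 1 of 16 was lower in both, 2 were higher in both and 4 had a negative log2 difference. The gene-level log2 difference of FYB1 changed sign without wild-type replicate 2. CDH12 had 0 of 11 lower and 6 higher.

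**Figure D4:**
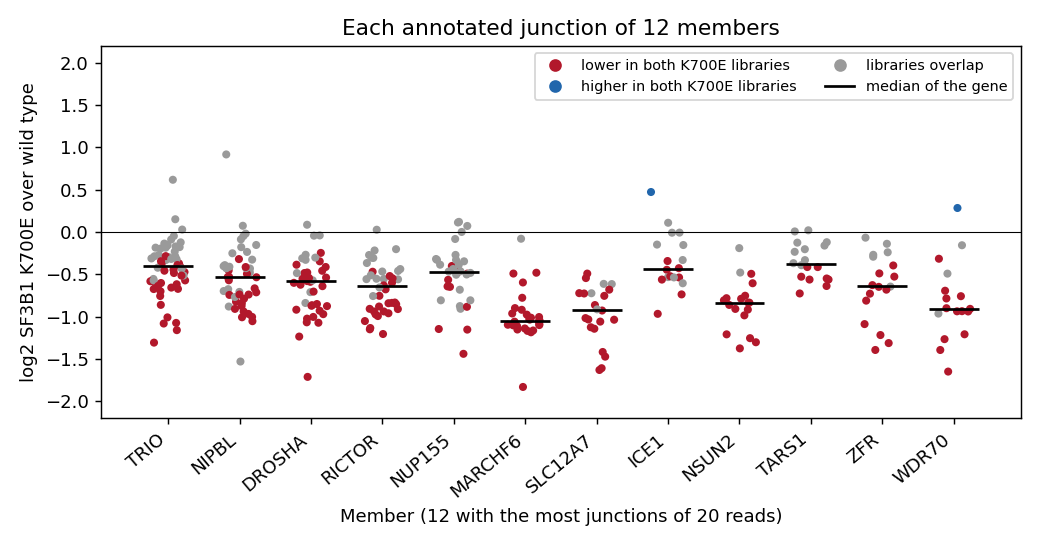
Log2 ratio, SF3B1 K700E over wild type, of every annotated junction with at least 20 reads in the 12 members with the most such junctions. Red points are lower in both SF3B1 K700E libraries, blue points higher in both, grey points overlap, and bars are medians, which run from -1.05 in MARCHF6 to -0.38 in TARS1.

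Both ends of the genes were low. In the 35 members of at least 20 kb that had reads in each end, with each gene cut into 3 equal parts, junctions of the 5′ part had a median log2 difference of -0.84 and those of the 3′ part -0.72, against 0.00 and 0.04 in 3961 other genes. The end nearer the start was negative in 34 of the 35 and the far end in 31. Of the 3961 other genes, 1979 were negative at the end nearer the start and 1811 at the far end. By intron length, the median over member junctions was -0.62 up to 1000 nt (220 junctions), -0.64 up to 5000 nt (403), -0.68 up to 20000 nt (110) and -0.49 above that (47). Over all junctions the medians were 0.01, 0.04, 0.03 and -0.06 in the same order. The share lower in both SF3B1 K700E libraries was 57.7%, 63.5%, 66.4% and 34.0% in members. It was 16.5%, 16.6%, 17.6% and 22.2% over all junctions.

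Which junctions the members used was also compared, since SF3B1 K700E is known for choosing cryptic 3′ splice sites a short way upstream of the usual one. Junctions sharing a donor or acceptor were grouped into clusters, and the share of each junction within its cluster was tested with edgeR's diffSpliceDGE, a measure that cancels the level of the gene. Of 227 member junctions in 82 clusters, 0 passed the adjusted threshold, with 5 at an unadjusted p under 0.05, against 1123 of all 38110 junctions. limma's voom with diffSplice also called 0, with 4 unadjusted. Over all 38110 junctions, 25 passed with edgeR, which is 0.0656%. No member had an acceptor 10 to 30 nt upstream of its main one with at least 10 reads. Over all genes 378 such sites were found, but with 38110 junctions compared against 227 in members. With so few member junctions, nothing is read from the 0. A shift in junction use in these genes was not detected, which does not show that it is absent.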

How the data were processed

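Chromatin-bound RNA of 4 K562 libraries was analysed from the deposited splice-junction files, which give unnormalized counts of reads per junction. According to the deposited run logs, the authors aligned read pairs with STAR 2.7.10a to GRCh38.p12 with GENCODE release 27 and, added at mapping, release 22 junctions. Unspliced reads were not analysed here. For each gene of GENCODE release 29, uniquely mapped reads on its annotated junctions were added up, leaving out introns of more than 1 gene (3.79% to 4.15% of reads). CPM are these counts scaled to a common total of assigned reads and by TMM factors. The kit's strand is not stated, and junction strand came from the splice motif. Genes were tested with edgeR 4.0.16 (quasi-likelihood, filterByExpr, Benjamini-Hochberg at 0.05) in R 4.3.3, junction use with diffSpliceDGE on junctions of at least 10 reads, and DESeq2 1.42.0 and limma 3.58.1 were alternatives. Standard errors are the log2 difference over the root of the test's F. The procedures were also run on simulated counts, with changes larger than the members' median difference and less spread between libraries than measured here. That run does not show how well differences of the members' size are found. Tables were made with Python 3.11.15, pandas 2.3.3 and scipy 1.17.1.

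The members and the 8 function and 4 marker lists were chosen with earlier results of these data known. Named are the 12 members with the most reads, the 5 lowest and 5 highest log2 differences among members of at least 400 reads, called members, members of the function lists, the genes at both ends of the stretch and at the read minimum, and the 2 genes left out; members named outside this rule (ZDHHC11B, copies and pseudogenes, members of head-to-head pairs) were chosen after their values were seen. A comparison of promoter base composition would be void, since only 63 of 79 members have an entry, under the 80% needed, and was not made.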

Additional observations from a re-analysis of the deposited data

How the results depend on the processing

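The median log2 difference of the members was -0.80 and lay between -0.80 and -0.79 with DESeq2, library totals, no filter, multiply mapped reads, shared introns or members of at least 400 reads. Leaving out 1 library at a time it ranged from -1.01 to -0.63. The count of members lower in both SF3B1 K700E libraries was 59, and between 58 and 59 under the other scalings and filters. It was 36 of 45 with at least 400 reads, where 18.2% of all genes tested were lower in both. With 1 library left out, the count of members was 59 to 69, and it can then only stay or grow. The difference in their share of reads was -0.348 points, -0.235 without the 3 members with most reads, and -0.419 to -0.277 with 1 library left out. Over 869 recomputed log2 values of members under 11 settings, 33 changed sign in 13 members, of which the largest main value was 0.94 in size (LINC02241); 3 moved by more than the replicate spread, CDH12 (6.52) and CPLANE1 (1.51) without wild-type replicate 1, and LINC02241 (-7.42) without SF3B1 K700E replicate 1.

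Over all genes 102 were called, 217 by DESeq2, and 0 to 318 with 1 library left out, the 0 being without SF3B1 K700E replicate 2, where 881 had an unadjusted p under 0.05. Junctions called in use numbered 25, 40 with a minimum of 20 reads, 39 with multiply mapped reads, 15 with limma voom, and 1 to 3 with 1 library left out; the causes were not tested. The labels number replicates 1 and 2 in both genotypes without saying that a number marks a shared batch. Same-numbered libraries did not deviate together but tended to opposite directions (correlation -0.23). In groups of 2 libraries this means that unlike-numbered libraries tended to deviate together, and why was not tested. With the replicate number as a block, 139 genes and 6 junctions were called, the members' median stayed at -0.80 and 3 members were called lower.

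Depth limits the members with few reads. The biological coefficient of variation over all genes was 21.7% with 2 libraries per genotype. Of the 34 members under 400 reads, 23 were lower in both SF3B1 K700E libraries. At any depth 20.1% of all genes tested were. The share among all genes under 400 reads was not taken, so nothing is read from the 23.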

Other observations

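Beyond the members, 3 tested genes of the same stretch fell short of the 40 reads. LINC02212 had 0 and 1 reads in SF3B1 K700E and 10 and 20 reads in wild type. LINC02228 had 2 and 0 reads in SF3B1 K700E and 13 and 17 reads in wild type. AMACR, a racemase of branched-chain fatty acids, had 1 and 11 reads in SF3B1 K700E and 13 and 10 reads in wild type. In AMACR the count of SF3B1 K700E replicate 2 exceeded that of wild-type replicate 2, but scaled by library size it lay below both wild-type libraries.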
